A study of Mus musculus with 8 samples.

Results

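Described here are 8 genes of the unfolded protein response (UPR), measured in the olfactory mucosa of newborn mice with a conditional deletion of the homeodomain transcription factor Emx2 in olfactory sensory neurons (OSNs). The genes are Eif2ak3, Atf5, Atf4, Ddit3, Trib3, Hspa5, Xbp1 and Herpud1. They were chosen by name, for their place in the path from endoplasmic reticulum (ER) stress to the transcription factor Atf5 or among general UPR genes, and not by their values. Each has 1 row on the array, out of 21789 rows that carry a single gene symbol.

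The series has 8 arrays (Affymetrix Mouse Gene ST, whole transcripts), 1 for each sample of total RNA from mucosa dissected on postnatal day 1. The knockout group has 4 samples of genotype 123Cre:Emx2(fl/fl). The control group has 4 littermate samples of 2 genotypes: 2 samples are 123Cre:Emx2(fl/+), in which Cre meets a single floxed allele, and 2 are Emx2(fl/fl), in which both alleles are floxed but Cre is absent. Both sexes were used, and each litter that gave knockouts also gave controls. All mice are of a mixed 129 x C57BL/6J background and carry at least 1 floxed Emx2 allele. Cre from the 123Cre transgene acts from the immature OSN stage onward, so the other cells of the mucosa keep Emx2 in every group. In the paper, a reporter showed recombination by 123Cre in only a fraction of the cells in the OSN layers. Some OSNs of the knockouts may therefore keep Emx2 as well, which limits what an absence of difference can show. The series asks how Emx2 acts on odorant receptor (OR) genes in OSNs, and the genes described here belong to the signalling that follows OR protein in the ER.

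When unfolded protein builds up in the ER, 3 sensors respond. The kinase PERK, encoded by Eif2ak3, phosphorylates the translation initiation factor eIF2, which slows general translation but allows that of a few mRNAs, among them those of Atf4 and Atf5. The nuclease IRE1 splices Xbp1 mRNA, and Atf6 is cut to release a transcription factor. In OSNs the same machinery serves OR choice. Newly made OR protein in the ER activates PERK, translation of Atf5 follows, the demethylase Kdm1a is then shut off by way of the adenylyl cyclase Adcy3, and no further OR gene is opened. PERK and Atf5 act through protein modification and translation, which mRNA levels do not measure, and a value for the whole Xbp1 transcript does not tell its spliced from its unspliced form. In whole mucosa, fewer cells of a type and less RNA per cell cannot be told apart.

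The ER chaperone gene Hspa5 and the ER degradation gene Herpud1 have regulatory elements close to their start sites that mark them as ER stress genes, and these are shown because both genes are described below. The sequences are RefSeq promoter windows of build GRCm38.p6, which run from 250 bases before to 50 bases after a gene's start and were found for 8 of the 8 genes. The motifs searched on both strands were the ER stress response element (ERSE, CCAAT and CCACG with 9 open bases between them), its second form (ERSE-II, ATTGG and CCACG with 1 open base between them), the C/EBP-ATF response element bound by Atf4 (CARE, TGATGNAA) and the element bound by Xbp1 (UPRE, TGACGTGG). Capitals mark the fixed letters of each match. The Hspa5 stretch is chr2:34772005-34772063, plus strand, from base -85 to base -27 before the start, and its capitals are 1 ERSE. The Herpud1 stretch is chr8:94386297-94386407, plus strand, from base -132 to base -22, and its capitals are, in order, 1 CARE on the opposite strand and 1 ERSE-II.
Hspa5: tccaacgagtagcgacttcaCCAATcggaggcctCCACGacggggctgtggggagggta
Herpud1: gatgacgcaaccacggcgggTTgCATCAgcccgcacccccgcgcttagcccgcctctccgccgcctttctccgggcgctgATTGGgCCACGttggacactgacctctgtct

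Over all 32851 promoter windows, 0.119% held an ERSE, 0.0365% an ERSE-II, 3.97% a CARE and 0.676% a UPRE. Trib3 had a CARE within its window as well, on the opposite strand from base 15 to base 22 after the start. The windows of Eif2ak3, Atf5, Atf4, Ddit3 and Xbp1 held none of these letters. The ERSE and ERSE-II both contain a CCAAT box, read on the opposite strand in the ERSE-II.

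The targeted mRNA was checked first. Emx2 averaged 9.90 ± 0.089 in the knockouts and 10.84 ± 0.12 in the controls (SD, n = 4 each), so that the knockouts held 52.0% of the control level (adjusted p = 0.0014, limma). Omp, the marker of mature OSNs, averaged 12.88 ± 0.061 and 12.94 ± 0.091 in the same order, and Gap43, the marker of immature OSNs, 11.34 ± 0.068 and 11.56 ± 0.070, with all 4 knockouts below all controls for Gap43 (limma unadjusted p = 0.0095, adjusted p = 0.564). Both markers thus stood high in the range of deposited values (2.78 to 14.78) in both groups. Knockout replicate 2 stood apart: its mean correlation to the other arrays was 0.978, while that of each of the other 7 was 0.987 to 0.990, and its limma array weight of 0.17 was the lowest of the 8. Titles number the arrays A1 to A8, with knockout and control replicates 1 and 2 on A1 to A4 and replicates 3 and 4 on A5 to A8.

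Trib3 had the largest difference of the 8 UPR genes, -0.25, and Xbp1 alone was above 0, at 0.05. In limma over 23410 rows, 0 of the 8 genes had an adjusted p under 0.05, where 0.359% of all rows did (0.35% lower and 0.00854% higher in the knockouts), a share at which 0 of 8 does not set these genes apart. The methods' t-test also called 0. At an unadjusted p under 0.05, limma had 1 of the 8, Trib3, where 6.1% of all rows passed. Of the 8 differences (knockout minus control, log2 scale throughout), 7 were below 0, while 48.4% of all rows were. Their median was -0.13, and that of all rows was 0.0041. No gene had all 4 knockouts below all 4 controls, as 2.54% of rows did, or all 4 above, as 1.98% did. The 95% intervals of the 8 differences lay between -0.49 and 0.26 at their outermost bounds, and 7 of the 8 included 0.

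**Figure D1:**
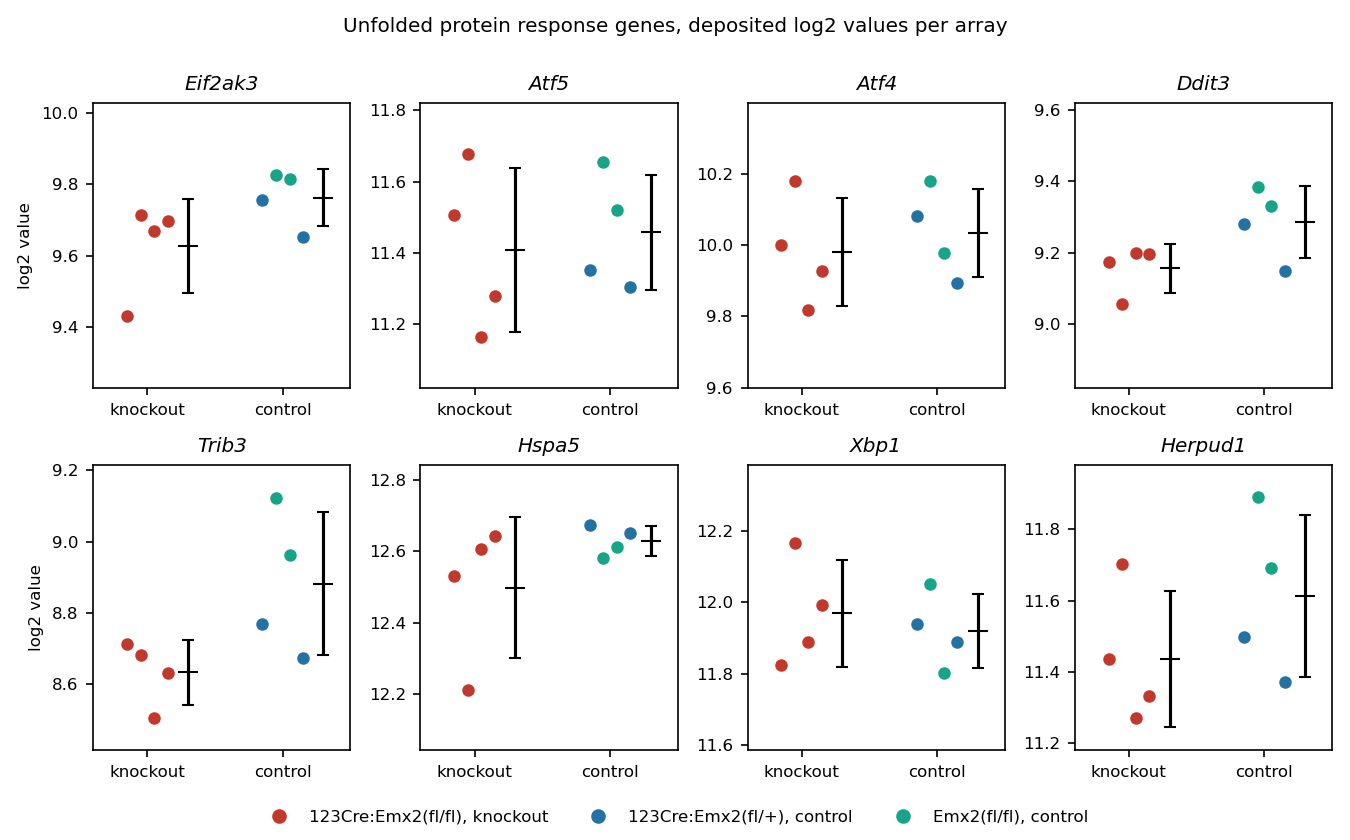
Deposited log2 values of the 8 UPR genes (vertical axes of equal span) in knockouts and controls, where each point is an array, its colour the genotype, and the black bar the mean with its SD. The groups overlap in every panel, and for Eif2ak3, Ddit3 and Trib3 the 2 highest points are the Emx2(fl/fl) controls.

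Eif2ak3, which encodes PERK, heads the path. It stood at 9.43, 9.71, 9.67 and 9.70 in knockout replicates 1 to 4, against 9.76, 9.83, 9.82 and 9.65 in control replicates 1 to 4. Knockout replicate 1 was the lowest of all, the other knockouts lay close together, and control replicate 4 lay below those 3. The difference was -0.14 (SE 0.085, 95% interval -0.33 to 0.057, adjusted p = 0.929), or 91.1% of the control level with an interval from 79.7% to 104%. Without knockout replicate 1 the difference was -0.07.

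Atf4 and Atf5, the transcription factors whose translation PERK favours, were closest to no difference among the genes of this arm. Atf5 stood at 11.51, 11.68, 11.16 and 11.28 in the knockouts, against 11.35, 11.65, 11.52 and 11.30 in the controls. The knockouts held both the highest and the lowest value, and both groups spread widely. Its difference of -0.05 (SE 0.128, 95% interval -0.34 to 0.24, adjusted p = 1.0) amounted to 96.6% of the control level, with an interval from 78.9% to 118%. The sign depended on single arrays, since leaving out knockout replicate 3 gave 0.03 and leaving out control replicate 2 gave 0.01.

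Atf4, the general effector of eIF2 phosphorylation, had values of 10.001, 10.18, 9.82 and 9.93 in the knockouts and 10.08, 10.18, 9.98 and 9.89 in the controls. The groups overlapped nearly in full. The difference was -0.05 (SE 0.098, 95% interval -0.27 to 0.17, adjusted p = 1.0), and 0.0018 without knockout replicate 3. In both groups, replicates 1 and 2 exceeded replicates 3 and 4, a pattern taken up below.

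Downstream of Atf4 are Ddit3, the transcription factor CHOP that promotes cell death in lasting stress, and Trib3, a pseudokinase that restrains Atf4 and CHOP. Ddit3 stood at 9.17, 9.05, 9.20 and 9.20 in the knockouts, against 9.28, 9.38, 9.33 and 9.15 in the controls. All knockouts lay below 3 of the controls, and control replicate 4 lay among the knockouts. Its difference was -0.13 (SE 0.075, 95% interval -0.30 to 0.039, adjusted p = 0.903), or 91.4% of the control level.

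The values of Trib3 were 8.71, 8.68, 8.51 and 8.63 in the knockouts and 8.77, 9.12, 8.96 and 8.67 in the controls. Control replicates 2 and 3, the samples without Cre, stood above all others, while control replicates 1 and 4 were close to the knockouts. The difference of -0.25 (SE 0.106, 95% interval -0.49 to -0.0068) had an unadjusted p of 0.0451 and an adjusted p of 0.81 in limma, with the knockouts at 84.2% of the control level (interval 71.2% to 99.5%). With the methods' t-test the unadjusted p was 0.0653. Leaving out control replicate 2 took the difference to -0.17, and it stayed below 0 in all 21 alternatives, between -0.41 and -0.077.

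Hspa5, Xbp1 and Herpud1 report on the ER itself. Hspa5 encodes BiP, the chief chaperone of the ER lumen, which also holds the sensors inactive. It stood at 12.53, 12.21, 12.61 and 12.64 in the knockouts, against 12.67, 12.58, 12.61 and 12.65 in the controls. The low value of knockout replicate 2 made most of the difference of -0.13 (SE 0.0997, 95% interval -0.36 to 0.095, adjusted p = 0.979), which was -0.04 without that array. The 4 controls differed little from one another (SD 0.041).

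Xbp1, the target of IRE1 and a driver of secretory capacity, was the one gene with a positive difference. Its values were 11.83, 12.17, 11.89 and 11.99 in the knockouts and 11.94, 12.05, 11.80 and 11.89 in the controls. The difference was 0.05 (SE 0.093, 95% interval -0.16 to 0.26, adjusted p = 1.0), and -0.02 without knockout replicate 2, which held the highest value.

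Herpud1 encodes an ER membrane protein that organises the degradation of misfolded proteins, and its promoter joins the ERSE-II and the CARE printed above. Its values were 11.44, 11.70, 11.27 and 11.33 in the knockouts and 11.50, 11.89, 11.69 and 11.37 in the controls. Control replicate 2 was the highest, and 3 of the 4 knockouts lay below 3 of the 4 controls. The difference was -0.18 (SE 0.134, 95% interval -0.48 to 0.13, adjusted p = 0.979), with the knockouts at 88.4% of the control level and an interval from 71.6% to 109%. Leaving out knockout replicate 2 gave -0.27, and leaving out control replicate 2 gave -0.09.

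**Figure D2:**
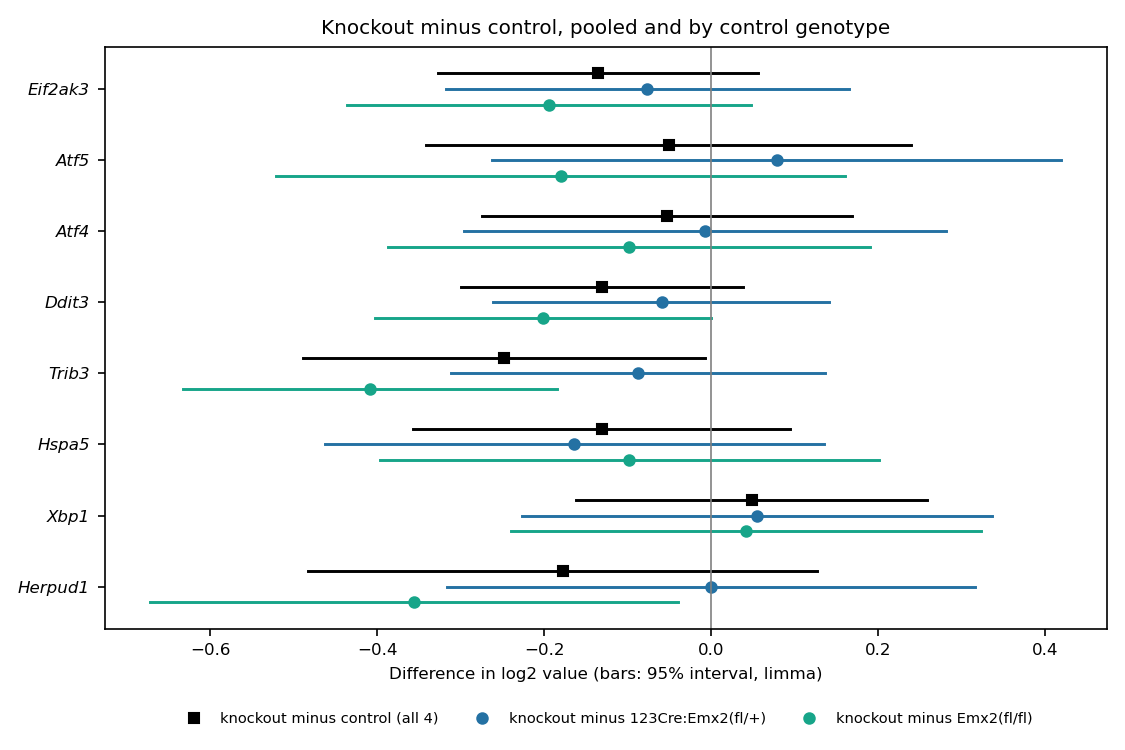
Difference in log2 value (horizontal axis) for the 8 UPR genes, knockout minus all controls (black squares), minus 123Cre:Emx2(fl/+) controls (blue) and minus Emx2(fl/fl) controls (green), with 95% intervals from limma. Herpud1 is at 0.00042 against 123Cre:Emx2(fl/+) and at -0.36 against Emx2(fl/fl).

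Since the control group mixes 2 genotypes, each was also compared with the knockouts in a limma fit of 3 genotypes. Against 123Cre:Emx2(fl/+), 0 of the 8 genes had an unadjusted p under 0.05 (3.54% of all rows did), and the differences were -0.09 for Trib3 (95% interval -0.31 to 0.14) and 0.00042 for Herpud1 (-0.32 to 0.32). Against Emx2(fl/fl), 2 of the 8 passed that p (5.47% of all rows did). Trib3 differed by -0.41 (SE 0.0964, unadjusted p = 0.00306, adjusted p = 0.456) and Herpud1 by -0.36 (SE 0.136, unadjusted p = 0.032, adjusted p = 0.854). No gene of the 8 had an adjusted p under 0.05 in either contrast, where 0.179% and 0.137% of all rows had one, in the order given.

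The control genotypes themselves were then set against each other. Between 123Cre:Emx2(fl/+) and Emx2(fl/fl), Trib3 differed by -0.32 (SE 0.111, unadjusted p = 0.0209, adjusted p = 0.997), Herpud1 by -0.36 (SE 0.157, unadjusted p = 0.0545) and Atf5 by -0.26 (SE 0.17, unadjusted p = 0.167). By limma 0 of 23410 rows had an adjusted p under 0.05 in this contrast, with 478 at an unadjusted p under 0.05 (2.04%), and 1 of the 8 genes was among the latter. The control genotypes thus differed in Trib3 by an amount of the same order as knockouts and controls did. Means of Trib3 were 8.63 in knockouts, 8.72 in 123Cre:Emx2(fl/+) and 9.04 in Emx2(fl/fl), and those of Herpud1 11.44, 11.44 and 11.79 in the same order of genotypes.

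Read by Cre rather than by group, the values of 3 genes separated. The 6 arrays from mice with Cre reached at most 8.77 for Trib3, 9.76 for Eif2ak3 and 9.28 for Ddit3, while the 2 arrays from mice without Cre stood at 8.96 and 9.12 for Trib3, 9.82 and 9.83 for Eif2ak3, and 9.33 and 9.38 for Ddit3. This pattern, with both arrays that lack Cre above all 6 others, held for 3.47% of all rows, and the opposite pattern, which none of the 8 genes had, for 3.69%. The grouping was chosen after the values were seen, the Emx2(fl/fl) samples number 2, and mice without Cre also differ from the knockouts in keeping Emx2, so the transgene and the deletion cannot be told apart between these samples. A fit with Cre as a term beside the group is the fit of 3 genotypes in another form. Its group difference is by construction that against 123Cre:Emx2(fl/+) given above, so it adds no further evidence. In limma, 0 of the 8 genes had an unadjusted p under 0.05 there, as 3.54% of all rows did, and the difference of Trib3 was -0.09.

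**Figure D3:**
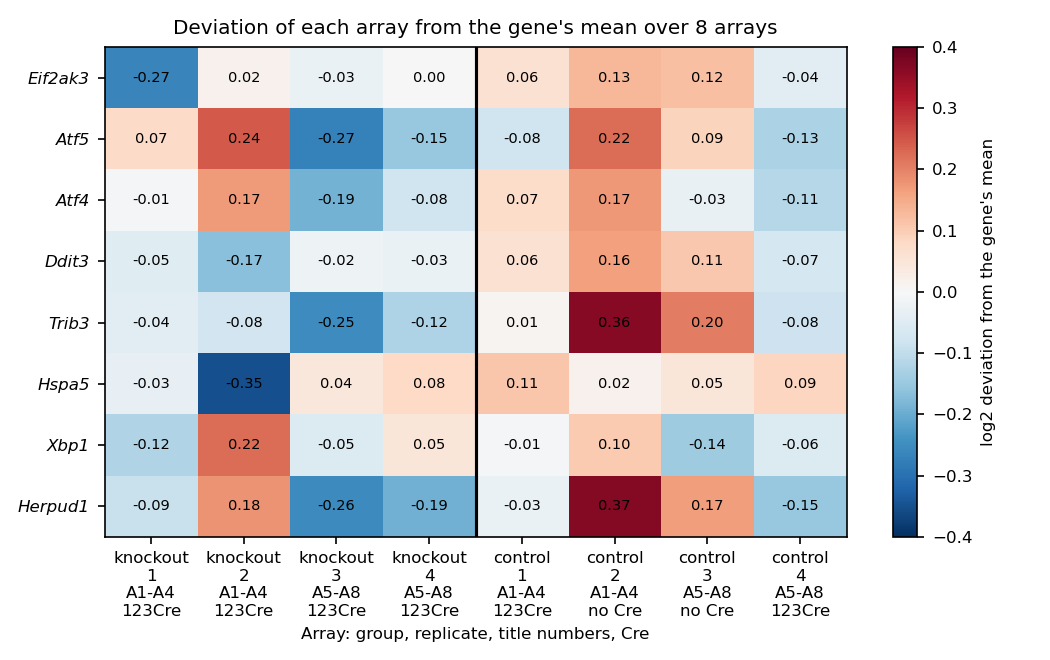
Deviation of each array from the gene's mean over the 8 arrays (log2, colour and printed value) for the 8 UPR genes (rows), with knockouts left and controls right and the title numbers and the Cre state under each column. Control replicate 2 is above the mean for all 8 genes, and knockout replicate 2 is high for Atf5 (0.24) and low for Hspa5 (-0.35).

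The arrays also differed by their place in the title numbering, and Atf4 was the UPR gene that separated along it. Arrays A1 to A4 lay between 10.001 and 10.18 for Atf4 and arrays A5 to A8 between 9.82 and 9.98, a pattern that 9.45% of all rows had. The opposite order, which 9.6% had, was not seen among the 8 genes. Within A1 to A4 (2 knockouts against 2 controls), the differences of Atf5 and Herpud1 were 0.09 and -0.12, and within A5 to A8 they were -0.19 and -0.23. Trib3 differed by -0.25 in either set, with both knockouts below both controls each time. That order was also seen for Eif2ak3, Ddit3 and Hspa5 in A1 to A4, and for Atf5 and Herpud1 in A5 to A8. The share of all rows with it was not counted, so it does not set Trib3 apart. Eif2ak3 differed by -0.22 and -0.05, Ddit3 by -0.22 and -0.04, and Hspa5 by -0.26 and -0.01, so these genes drew their difference mainly from A1 to A4. With the set as a block in limma, Trib3 had an unadjusted p of 0.0347 and an adjusted p of 0.533, and none of the 8 genes had an adjusted p under 0.05.

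Across the 8 arrays the genes fell in with one another to different degrees. These correlations are descriptions over 8 arrays that share group, genotype and place in the numbering. Pearson's r was 0.90 between Atf5 and Herpud1, 0.88 between Atf5 and Atf4, 0.87 between Trib3 and Herpud1 and 0.77 between Ddit3 and Trib3. Without knockout replicate 2, Trib3 and Herpud1 reached 0.99 and Ddit3 and Trib3 0.88 over the remaining 7 arrays, a set chosen after seeing the data. Hspa5 had a negative r with Atf5 (-0.64), Atf4 (-0.55), Herpud1 (-0.39) and Xbp1 (-0.66), of which the last was 0.24 without that array. Its r was 0.59 with Ddit3 (-0.062 without that array), 0.09 with Eif2ak3 and 0.08 with Trib3. Eif2ak3 reached at most 0.56, with Herpud1 and with Ddit3, over the 8 arrays. Without knockout replicate 2, Eif2ak3 and Ddit3 were at 0.77. That array also set other values of Ddit3, whose r went from 0.16 to 0.755 with Atf4 and from 0.45 to 0.91 with Herpud1 without it. Between Atf4 and Hspa5 the r was then -0.17.

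Part of this pattern was shared with the arrays as wholes. The array medians lay between 7.998 and 8.13 in the knockouts and between 8.05 and 8.11 in the controls, and r between a gene and the array median was -0.93 for Atf4, -0.88 for Atf5, -0.78 for Herpud1 and 0.80 for Hspa5. It was -0.72 for Xbp1, -0.41 for Trib3, -0.26 for Eif2ak3 and 0.13 for Ddit3. Knockout replicate 2, the array with the lowest median, decided several of these values: without it r was 0.26 for Hspa5, -0.32 for Xbp1, -0.89 for Trib3 and -0.80 for Ddit3, while it was -0.98 for Atf4, -0.90 for Atf5 and -0.35 for Eif2ak3. Among 17347 other rows above the dimmest 30% of rows, 1413 (8.15%) had an r over 0.9 with Atf4 and 899 (5.18%) with Atf5, but 0.156% with Eif2ak3 and 0.179% with Ddit3. Over the 8 arrays the patterns of Atf4, Atf5 and Hspa5 (4.83%) were therefore shared by many rows, and that of Herpud1 by 2.42%. Those of Eif2ak3, Ddit3, Trib3 (0.409%) and Xbp1 (0.219%) were shared by few. The genes most like Atf5 were Mroh1 (r = 0.997), Nol4l (0.992) and Zmiz2 (0.992), and those most like Eif2ak3 were Tbcb (0.971), Fam220a (0.962) and Mrpl3 (0.96), over 8 arrays each.

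**Figure D4:**
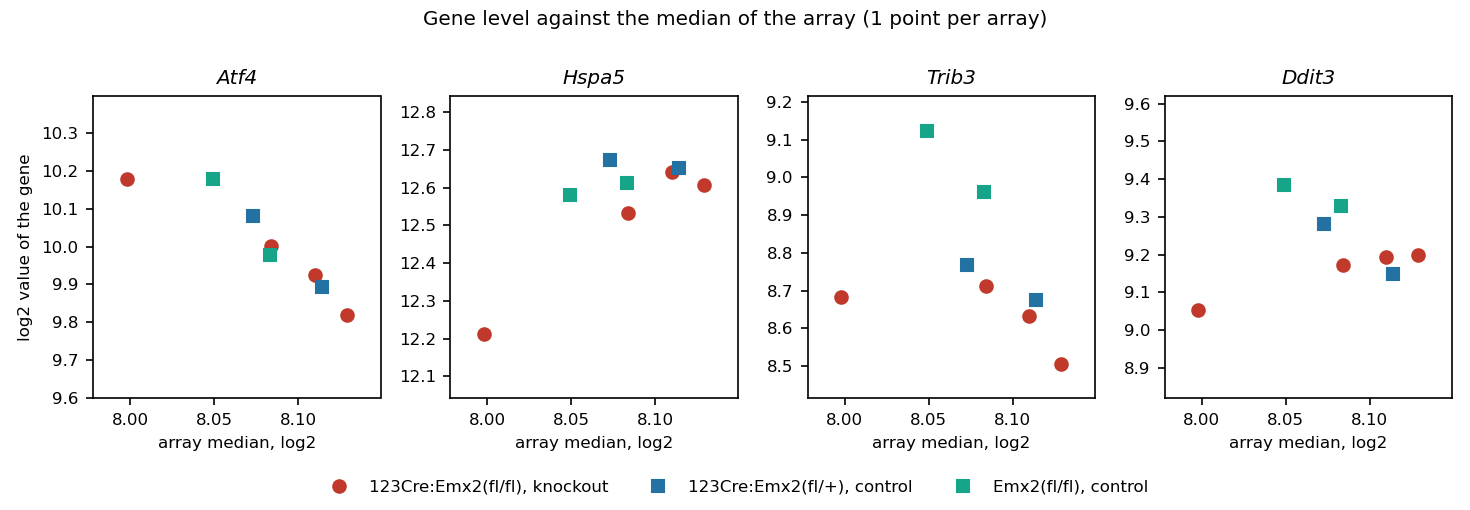
Log2 value of Atf4, Hspa5, Trib3 and Ddit3 (vertical axes, equal spans) against the median log2 value of all rows on the array (horizontal axis), 1 point per array, circles for knockouts and squares for controls. Atf4 runs against the array median (r = -0.93), and Hspa5, Trib3 and Ddit3 have knockout replicate 2, at the left edge, away from the course of the other arrays.

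The wider pathways were counted with 1 row for each gene. Over 9 lists with 122 genes, 115 were measured, and Emx2 was the 1 gene with an adjusted p under 0.05. Counted at an unadjusted p under 0.05, 1 was higher and 5 lower, Emx2 included, beside 3.04% and 3.06% of all rows, so the 6 of 115 lay near the share of all rows. The median of the 115 genes was -0.04. Among 13 measured subunits of the eIF2 kinases, eIF2, its exchange factor eIF2B and the eIF2 phosphatase, 0 passed either p. The lowest p-values were those of Ppp1r15b and Ppp1r15a, the subunits that direct phosphatase to eIF2, at -0.15 (adjusted p = 0.826) and -0.24 (adjusted p = 0.919). A second row of Ppp1r15b, with a mean of 8.22 against 10.29, differed by 0.000283. Eif2ak1, the kinase of the family that senses heme, differed by -0.09 with all 4 knockouts below all controls, and Eif2s3x, the gamma subunit of eIF2, by -0.26. Such a gap, held by 2.54% of all rows, was also seen on these lists in Cth, Dnajb11, Vimp, Ube2j1, Hspa9, Emx2, Rtp2 and Reep1. Eif2ak1 and these genes are all of the 115 measured that had it. The gap was held by 3 of 8 genes for OR feedback and export, the deleted Emx2 among them, and by 2 of 19 for ER degradation. The lists of eIF2 (13 genes), Atf4 targets (28), Atf6 and chaperones (16) and mitochondrial chaperones (6) had 1 each. The Ire1 and Xbp1, CREB3 and heat shock lists had none. Whether the lists differ from all rows in this was not tested.

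Among 28 measured targets of Atf4, 18 differences were below 0, with a median of -0.09, and 0 had an adjusted p under 0.05. Cth, which makes cysteine from cystathionine, had the lowest p. It stood at 9.05, 8.92, 9.19 and 9.26 in the knockouts, against 9.47, 9.49, 9.52 and 9.44 in the controls. Every knockout lay below every control, and the difference was -0.38 (SE 0.0841, unadjusted p = 0.00163, adjusted p = 0.225). Nupr1, a stress-induced chromatin protein, went the other way at 0.24 (unadjusted p = 0.0481, adjusted p = 0.818), so the 2 targets past the unadjusted p had opposite signs. Sesn2, a sensor of leucine, differed by -0.26 and Gpt2, an alanine transaminase, by -0.16, without passing that p.

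The branches of Ire1 and Atf6 and the degradation machinery had medians of -0.04, -0.05 and -0.07. Dnajb11, a cochaperone of BiP in the ER lumen, was at 10.14, 10.27, 10.24 and 10.25 in the knockouts and at 10.43, 10.47, 10.43 and 10.40 in the controls. The groups did not overlap, and the difference was -0.20 (SE 0.0617, unadjusted p = 0.00922, adjusted p = 0.558). Its promoter window was the one among the 13 searched for the Atf6 and chaperone list that held an ERSE-II. The ERSE was found in 5 others: Hsp90b1, Calr, Canx, Pdia6 and Creld2. These differed by -0.08, -0.01, -0.04, -0.07 and 0.02 in that order. Whether the elements go with the differences was not tested. Vimp, now called Selenos, a selenoprotein of ER degradation, differed by -0.19 (unadjusted p = 0.0311, adjusted p = 0.776), also without overlap. None of the 14 Ire1 and Xbp1 genes passed the unadjusted p, and Dnajb9, a classic target of Xbp1, was nearest at -0.23 (adjusted p = 0.967).

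The other lists served to place these values. Cytosolic heat shock genes, which answer to misfolding outside the ER, were all above 0 (6 of 6 measured), with Hspb1 at 0.31 (adjusted p = 1.0) and a median of 0.06. CREB3 family genes, transmembrane factors related to Atf6, had a median of 0.04, and mitochondrial chaperones and proteases, which Atf5 governs in stressed mitochondria, one of -0.03, with Hspa9 at -0.12 and Hspd1 at -0.16. No gene of these 3 lists had an unadjusted p under 0.05.

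In the list for OR feedback and export, Emx2 fell and no other gene had an adjusted p under 0.05 in the main limma fit. Rtp2, which brings ORs to the cell surface, stood at 10.57, 10.68, 10.38 and 10.50 in the knockouts, against 10.92, 10.95, 10.98 and 10.88 in the controls. Its difference was -0.40 (SE 0.078, unadjusted p = 0.000661, adjusted p = 0.128). It passed the adjusted threshold in 3 of 21 alternatives: without knockout replicate 2 (-0.45, adjusted p = 0.0362), the same with the title set as a block, and with array weights. In 18 it did not pass, among them with 123Cre:Emx2(fl/+) controls alone (adjusted p = 0.998). Centred on mature OSN genes it was -0.23 (adjusted p = 0.137). Adcy3, the cyclase that links PERK to the closing of OR choice, differed by -0.11 (adjusted p = 0.919), and Reep1, another OR export factor, by -0.08. Kdm1a, the demethylase at the end of that path, differed by -0.04. The rest of the list, Rtp1, Lhx2 and Ldb1, differed by -0.04, -0.0040 and 0.04.

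**Figure D5:**
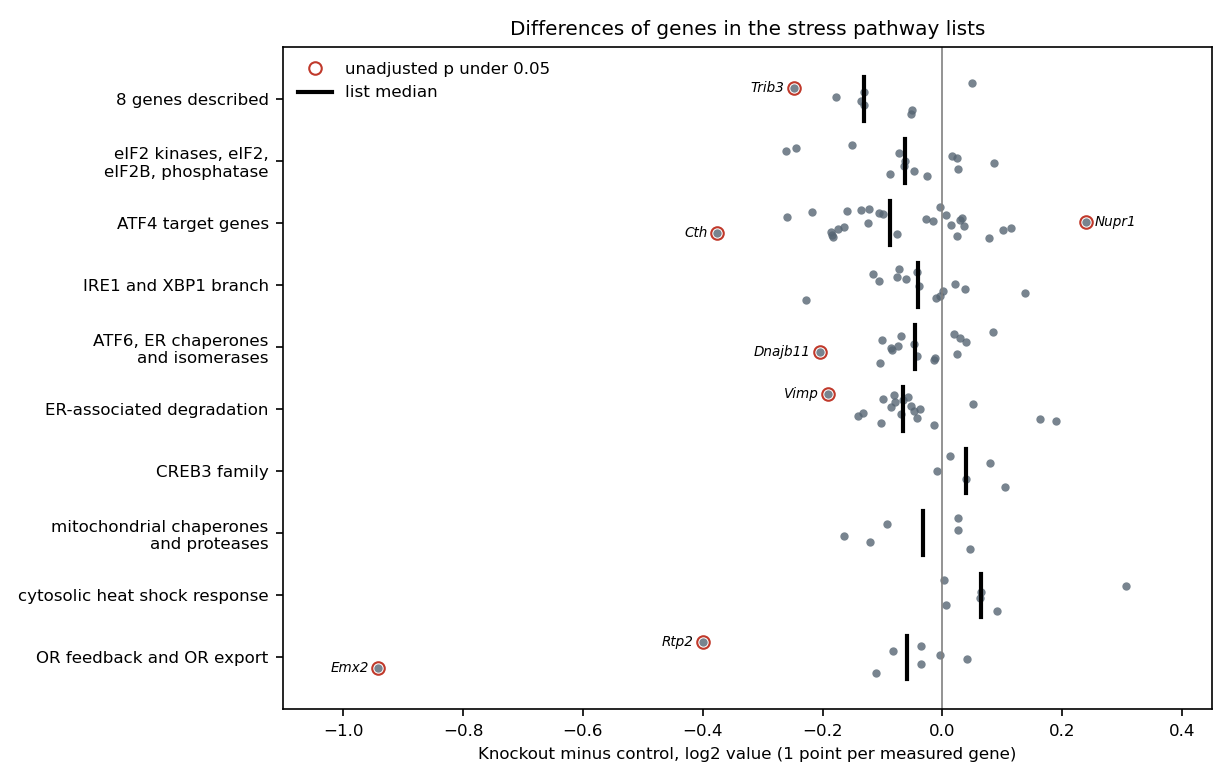
Knockout minus control difference in log2 value (horizontal axis) of every measured gene in the UPR set and 9 related lists (vertical axis), 1 point per gene, with the list median as a bar and red circles at an unadjusted p under 0.05. Medians lie between -0.13 for the 8 UPR genes and 0.06 for the cytosolic heat shock list, and Emx2 is at -0.94.

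Some markers of cell types also differed between the groups, but none had an adjusted p under 0.05 in the main limma fit. Their part in the UPR values was not tested. The paper reports that conditional Emx2 deletion left the numbers of mature and of immature OSNs unchanged. The mean level of 14 mature OSN genes lay between 11.47 and 11.61 in the knockouts and between 11.66 and 11.78 in the controls, and 4 of them were lower and 1 higher at an unadjusted p under 0.05 in limma. Rtp1, Rtp2 and Adcy3 are also on the OR feedback and export list, and Rtp2 is among the genes counted as lower. Of all rows, 3.06% were lower and 3.04% higher at that p, which is the share to set beside each count in this paragraph. The mean over 11 immature OSN genes ranged from 10.98 to 11.14 and from 11.08 to 11.28 in the same order, with a median difference of -0.14, close to the -0.13 of the UPR genes, and 3 of them, Gap43 included, were lower at an unadjusted p under 0.05. The mean over 5 olfactory bulb and brain genes ranged from 7.54 to 7.88 in the knockouts and from 7.74 to 8.37 in the controls, and its highest array was control replicate 2. The mean over the 8 UPR genes ranged from 10.52 to 10.67 in the knockouts and from 10.57 to 10.84 in the controls, and was likewise highest in control replicate 2. Differences of respiratory ciliated cell genes (median 0.23) and of skeletal muscle genes (median 0.10) were above 0 for 7 of 7 genes in each list, with 2 of 7 at an unadjusted p under 0.05 in each.

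When each array was centred on the 14 mature OSN genes, an alternative to the study's own correction by 1 factor from a longer list of mature OSN mRNAs, the median of all rows moved to 0.175 and that of the UPR genes to 0.04. Then 2 of the 8 genes, Trib3 at -0.08 and Herpud1 at -0.0070, were below 0. Centring shifts every row's difference by the same amount, so the distance of the UPR genes from the median of all rows is unaltered by construction.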

How the data were processed

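Affymetrix Mouse Gene 1.0 ST arrays were hybridised with biotinylated cRNA from 6 µg total RNA of each of 8 samples. The authors deposited log2 values per transcript cluster, which combine the probes along a gene. Affymetrix Expression Console is named in the submitters' processing notes. Which version, background correction and normalization it used is not given in these sources. The values were used as deposited (35557 rows, 2.78 to 14.78). Genes were named from the platform annotation, which gives 1 symbol to 21789 rows, several to 1621 and none to 12147, and 21698 of the former matched the reference by gene number.

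All 23410 rows with a symbol were fitted with limma 3.58.1 (lmFit, eBayes, two-sided) in R 4.3.3, knockout against control with no covariate, with Benjamini-Hochberg adjustment over these rows. Nothing in the labels ties samples to litters, so p-values reflect only how these samples vary, and the number of arrays limits the precision. The procedure was tested on simulated data. The genes and lists were chosen with earlier results of these data known, so no p is given for a list or adjusted over one. Named genes are the 8 UPR genes, Emx2, Omp, Gap43, up to 4 genes of each list with the lowest p, and the 3 genes most correlated with Eif2ak3 and with Atf5. Also named are the genes of the Atf6 and chaperone list with an ERSE and the rest of the OR feedback and export list. Where a listed gene had several rows, the one with the highest mean was taken. The alternatives tried were quantile normalization, the methods' t-test, 2 centrings, other row sets, a variance trend, array weights, title set (A1 to A4, A5 to A8) or Cre as a term, either control genotype alone and each array left out.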

Additional observations from a re-analysis of the deposited data

Results flagged for a closer look

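A sample far from the other 3 of its group was looked for in 34 groups of 4 (17 genes, knockouts and controls), where chance flags about 1 in 20, and 2 were found. Eif2ak3 in knockout replicate 1, at 9.43, lay below the other knockouts, and the gap to the nearest made up 0.841 of the range of the group. Vimp in control replicate 3, at 9.83, lay above the other controls, with a gap of 0.918 of the range.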

How the results depend on the processing

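No paired analysis was possible because the labels give knockouts and controls no shared replicate numbers. None of the 8 UPR genes had an adjusted p under 0.05 in any of 21 alternatives (20 limma fits and the methods' t-test). The number at an unadjusted p under 0.05 was 0 to 2, against 1 in the fit reported. The share of all rows at that p was 6.1% in the fit reported. It was 3% with 123Cre:Emx2(fl/+) controls alone, 14.7% with array weights and 27.4% when centred on mature OSN genes. The counts of these settings therefore do not compare directly. Emx2 was called in every one (adjusted p at most 0.0458). The count of rows called, 84, was 28 with the methods' t-test, 40 without the dimmest 30% of rows, 224 with array weights, 32 with 123Cre:Emx2(fl/+) controls alone and 25 with Emx2(fl/fl) controls alone. It was 46 to 132 with 1 array left out, lowest without knockout replicate 1 and highest without knockout replicate 2, and 51 to 55 without knockout replicate 3 or control replicates 2, 3 or 4. Chosen after seeing the data, Cre as a term gave 42, the same contrast as that against 123Cre:Emx2(fl/+) in the fit of 3 genotypes. The title set as a block without knockout replicate 2 gave 190. Pathway genes called numbered 1, and 2 with array weights and with that last setting; with 1 array left out there were 1 to 2, and the second gene was Rtp2.

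The sign of at least 1 of the 8 differences turned in 7 of the 21 alternatives, and that of Atf5 in 5. Centred on mature OSN genes, the difference was 0.04 for Eif2ak3, Ddit3 and Hspa5 (0.0355, 0.0404 and 0.0396) and 0.12 for Atf5 and Atf4 (0.1202 and 0.1182). Atf5 was 0.079 with 123Cre:Emx2(fl/+) controls alone or Cre as a term, and Herpud1 0.00042 in both. These settings give the same differences by construction. With 1 array left out, Atf5 ran from -0.14 to 0.031, Atf4 from -0.12 to 0.0018 and Xbp1 from -0.017 to 0.10, and Xbp1 was -0.010 with the title set as a block without knockout replicate 2. The cause was not tested.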
